A study of Mus musculus with 9 samples.

Results

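Transcripts of the MHC class I heavy chains and of their light chain were examined in the mouse colon carcinoma line MC38 and in liver metastatic derivatives of it. The 10 genes were chosen by symbol: the classical heavy chains H2-D1 and H2-K1, the non-classical heavy chains H2-Q4, H2-Q6, H2-Q7, H2-T22, H2-T23, H2-T24 and H2-M3, and B2m. Of these, 9 were found among the 16399 genes that every library lists, and H2-Q7 was not analysed here. All 9 reached 1 TPM or more (a transcript level scaled for length and to the same total in every library) in at least 3 libraries, and were tested among 11287 genes.

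MC38-P is the parental line, a colon epithelial cell line by its labels, which carries a GFP and firefly luciferase reporter. MC38-LM3a and MC38-LM3b are derivatives obtained after 3 rounds of injection into the spleen of immunocompetent mice, removal of the liver metastases and return to culture. By the study's scheme of the selection they share the first 2 rounds and were split at the third. Poly(A) RNA from cultured cells, with no further treatment named, was sequenced in 3 biological replicates of each line, 9 libraries in all. Each derivative is 1 line, so the replicates measure the spread between cultures of that line and not between separate selections. In bulk RNA, fewer cells with a transcript and less of it per cell cannot be told apart.

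A class I molecule is a heavy chain paired with B2m, the invariant light chain, and it carries a short peptide to the cell surface. The classical molecules K and D show peptides from inside the cell to CD8+ T cells and are made by nearly all nucleated cells. The non-classical molecules are mostly less abundant and more specialised: H2-T23 encodes Qa-1, which presents leader peptides to CD94/NKG2 receptors of NK cells, and H2-M3 presents peptides that begin with formylmethionine. H2-T22 encodes a molecule that certain gamma delta T cells recognise, and H2-Q6 is one of the genes for Qa-2. Heavy chain genes lie together in the H2 complex on chromosome 17, whereas B2m lies on chromosome 2, and class I promoters are known for NF-kB sites, interferon response elements and the X and Y boxes on which the transactivator NLRC5 acts.

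Promoter sequences are shown because the members differed in these letters as well as in the size of their differences. RefSeq windows of GRCm38.p6, 250 bases before and 50 after the annotated start, were at hand for 8 of the 9 genes analysed, all but H2-T24. Each was searched on both strands for a kappa-B like motif (GGG, any 2 bases, TTCCC), GAANNGAA (interferon response core), TGACGC (X2 like) and CCAAT (Y box like). A wider interferon response element (GAAA, any 2 bases, GAAA), which does not contain GAANNGAA, was added after the windows had been seen. In the 250 bases before the start, 5′ to 3′ on the gene's strand, capitals mark the matches to any of these motifs on either strand. The windows printed are H2-K1 (chr17:34000348-34000597, minus strand), H2-Q4 (chr17:35379367-35379616, plus strand), H2-T22 (chr17:36042743-36042992, minus strand), H2-T23 (chr17:36032702-36032951, minus strand) and B2m (chr2:122147437-122147686, plus strand).
H2-K1: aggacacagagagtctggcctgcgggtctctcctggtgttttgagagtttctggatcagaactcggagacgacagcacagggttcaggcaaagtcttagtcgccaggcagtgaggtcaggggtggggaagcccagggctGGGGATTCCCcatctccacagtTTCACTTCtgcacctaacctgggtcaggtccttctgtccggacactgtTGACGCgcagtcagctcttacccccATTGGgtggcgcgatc
H2-Q4: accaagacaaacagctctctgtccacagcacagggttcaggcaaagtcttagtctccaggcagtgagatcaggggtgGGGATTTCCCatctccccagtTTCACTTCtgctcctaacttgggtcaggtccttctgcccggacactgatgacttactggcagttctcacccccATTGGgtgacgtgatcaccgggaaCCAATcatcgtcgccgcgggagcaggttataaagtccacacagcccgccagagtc
H2-T22: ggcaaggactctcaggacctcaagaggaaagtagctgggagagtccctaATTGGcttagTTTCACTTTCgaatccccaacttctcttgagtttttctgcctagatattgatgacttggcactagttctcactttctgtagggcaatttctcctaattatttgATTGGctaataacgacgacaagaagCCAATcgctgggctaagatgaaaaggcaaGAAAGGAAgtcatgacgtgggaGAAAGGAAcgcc
H2-T23: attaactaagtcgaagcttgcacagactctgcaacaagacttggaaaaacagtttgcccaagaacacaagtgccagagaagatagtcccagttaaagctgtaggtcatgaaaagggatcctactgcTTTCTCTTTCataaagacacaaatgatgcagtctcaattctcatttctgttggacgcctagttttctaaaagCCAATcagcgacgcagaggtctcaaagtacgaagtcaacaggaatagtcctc
B2m: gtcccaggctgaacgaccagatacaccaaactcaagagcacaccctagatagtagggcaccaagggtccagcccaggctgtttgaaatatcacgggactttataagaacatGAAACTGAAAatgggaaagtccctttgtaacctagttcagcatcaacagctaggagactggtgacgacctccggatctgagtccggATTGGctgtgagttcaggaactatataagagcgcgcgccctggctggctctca

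The kappa-B like letters were in 4 of the 8 windows, those of H2-D1, H2-K1, H2-Q4 and H2-Q6, against 1.75% of all 32851 windows of this length. GAANNGAA was in 6 (H2-D1, H2-K1, H2-Q4, H2-Q6, H2-T22 and H2-M3), against 20.1% of all windows. In H2-K1 and H2-Q4 it follows the kappa-B like match closely, as the sequences show. The wider interferon response element was in those of H2-T22, H2-T23 and B2m, against 3.44% of all windows. TGACGC was in 4 windows, those of H2-D1, H2-K1, H2-M3 and H2-Q4, against 7.4%; the match of H2-Q4 lies after the start and is not in the bases printed. CCAAT was in all 8, against 37.4%. A match describes letters in a window and shows no binding.

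Some facts of the libraries touch every result below. The deposited values are TPM without read counts, so sequencing depth cannot be stated and errors from counting are not given. MC38-P replicate 3 and MC38-LM3a replicate 3 stood apart from the other replicates of their lines along transcript length: the Spearman correlation between a gene's deviation from its group mean and its length, over 11170 genes, was -0.61 and 0.64 in these libraries, 0.41 and 0.5 in the other MC38-P libraries, -0.54 and -0.51 in the other MC38-LM3a libraries, and between -0.01 and 0.01 in MC38-LM3b. The median log2 difference over all tested genes was 0.00 for MC38-LM3a against MC38-P and 0.21 for MC38-LM3b against either line, so each difference of MC38-LM3b has that shift as its reference. Of 7 epithelial markers, Epcam, Krt8, Krt18, Krt19 and Cdx2 reached 1 TPM, while Cdh1 and Vil1 did not. Their summed level was 2002 to 2317 TPM for MC38-P, 1590.1 to 1809.6 TPM for MC38-LM3a and 1583 to 1628 TPM for MC38-LM3b.

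The first question was whether class I transcripts differed between each derivative and the parental line. They were higher in both derivatives. Of the 9 genes, 8 rose in MC38-LM3a (adjusted p under 0.05 in limma, a linear model across all genes), and H2-T24 did not pass. Over all tested genes 14.1% passed as higher and 13.8% as lower in this comparison. The same number, 8 of 9, rose in MC38-LM3b, where 35.6% of all genes passed as higher and 11.2% as lower. With the libraries centred on their median, which removes the shift of all genes, 22.9% of all genes passed as higher in MC38-LM3b, 5567 genes passed in all, and 8 members still rose. The 8 include H2-Q6, which passed the filter on low values through the derivatives alone. With a filter of 5 TPM neither H2-Q6 nor H2-T24, the member that did not pass, was tested. The 7 members left all rose in each derivative, where 14.6% and 36.5% of all genes passed as higher. Both comparisons use the same MC38-P libraries. With both replicate 3 libraries that stood apart left out, 8 of 9 passed as higher in each comparison, against 18.4% and 46.3% of all genes.

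**Figure D1:**
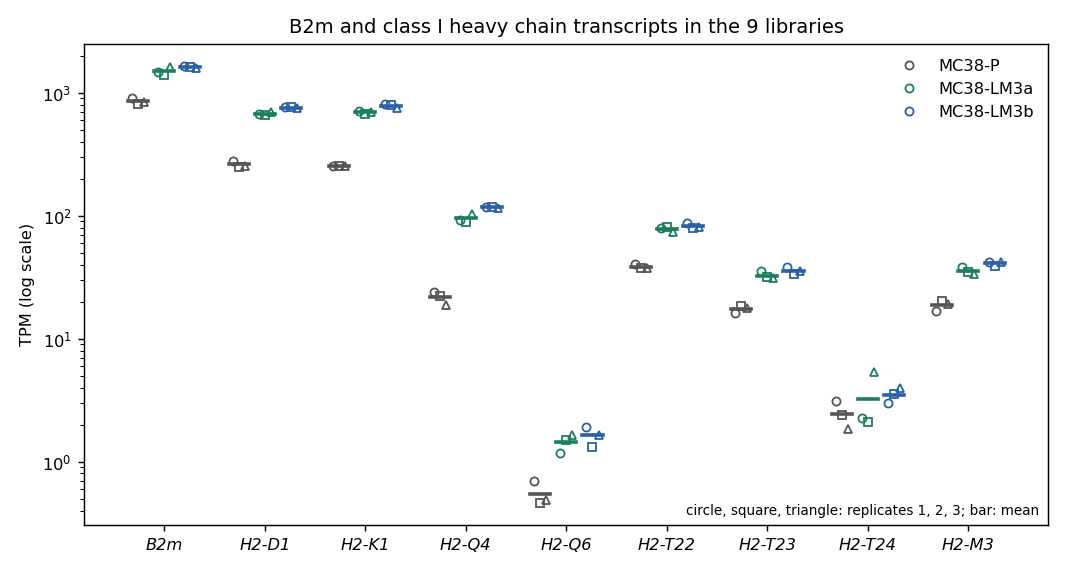
TPM (log scale) of B2m and the 8 heavy chain genes in each of the 9 libraries, with the mean of 3 replicates as a bar. The MC38-P libraries lie below all derivative libraries for every gene but H2-T24, whose groups overlap.

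The classical heavy chains were the most abundant of the heavy chains, and their means in the derivatives were 2.58 to 3.09 times those of MC38-P. H2-K1 (NCBI Gene 14972) was at 254.89, 252.63 and 253.79 TPM in MC38-P, at 702.25, 672.00 and 701.55 TPM in MC38-LM3a, and at 806.36, 798.94 and 748.33 TPM in MC38-LM3b. The parental libraries lay within a few TPM of each other and far below every derivative library. On the log2(TPM + 1) scale H2-K1 rose by 1.44 for MC38-LM3a (standard error 0.0508, 95% interval 1.33 to 1.56, adjusted p = 4.314e-08) and by 1.62 for MC38-LM3b (1.51 to 1.74, adjusted p = 1.551e-08), which are 2.73 and 3.09 times the mean of MC38-P.

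H2-D1 (NCBI Gene 14964) was at 279.96, 249.94 and 254.70 TPM in MC38-P, at 671.56, 653.10 and 700.46 TPM in MC38-LM3a, and at 765.40, 758.79 and 745.63 TPM in MC38-LM3b. It rose by 1.37 (standard error 0.0575, 95% interval 1.24 to 1.49, adjusted p = 9.725e-08) and by 1.53 (1.40 to 1.66, adjusted p = 3.805e-08) on the log2 scale. H2-D1 and H2-K1 stayed level with each other in all 3 lines. The ratio of H2-K1 to H2-D1 averaged 0.973 ± 0.0543 for MC38-P (SD, n = 3), 1.03 ± 0.0223 for MC38-LM3a and 1.04 ± 0.0286 for MC38-LM3b, with overlapping groups.

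Among the Q region genes, H2-Q4 (NCBI Gene 15015) had the largest difference of all members. It was at 24.04, 22.21 and 18.69 TPM in MC38-P, at 91.25, 89.51 and 103.62 TPM in MC38-LM3a, and at 117.80, 116.97 and 114.41 TPM in MC38-LM3b. Each derivative library held several times the level of any parental library. H2-Q4 rose by 2.08 (standard error 0.0952, 95% interval 1.87 to 2.30, adjusted p = 1.789e-07) for MC38-LM3a and by 2.38 (2.17 to 2.59, adjusted p = 5.661e-08) for MC38-LM3b, ranking 26 and 23 among the 11287 tested genes by size of rise.

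H2-Q6 (NCBI Gene 110557) was the least abundant member. It was at 0.70, 0.46 and 0.49 TPM in MC38-P, at 1.18, 1.51 and 1.65 TPM in MC38-LM3a, and at 1.92, 1.32 and 1.65 TPM in MC38-LM3b. All parental libraries were under 1 TPM and all derivative libraries above, so H2-Q6 entered the test through the derivatives and its p-value is not given. Its log2 differences were 0.66 and 0.76 on the log2(TPM + 1) scale, which understates a gene this low: the means were 2.63 and 2.96 times that of MC38-P.

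The differences of the T region genes were smaller than those of H2-D1, H2-K1 and H2-Q4. H2-T22 (NCBI Gene 15039), the ligand of gamma delta T cells, was at 40.23, 37.58 and 37.78 TPM in MC38-P, at 78.87, 81.47 and 74.13 TPM in MC38-LM3a, and at 87.33, 78.77 and 80.92 TPM in MC38-LM3b. Its means were 2.03 and 2.14 times that of MC38-P, with log2 differences of 1.00 (95% interval 0.84 to 1.16, adjusted p = 5.059e-06) and 1.08 (0.92 to 1.23, adjusted p = 2.313e-06). H2-T23 (NCBI Gene 15040), which encodes Qa-1, was at 16.08, 18.31 and 17.72 TPM in MC38-P, at 35.17, 31.48 and 30.86 TPM in MC38-LM3a, and at 38.00, 33.82 and 35.41 TPM in MC38-LM3b. Its log2 differences were 0.87 (0.67 to 1.07, adjusted p = 7.461e-05) and 1.00 (0.80 to 1.20, adjusted p = 2.162e-05), with no overlap between MC38-P and either derivative.

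H2-T24 (NCBI Gene 15042) was the exception. It was at 3.09, 2.40 and 1.85 TPM in MC38-P, at 2.24, 2.11 and 5.38 TPM in MC38-LM3a, and at 3.01, 3.52 and 3.93 TPM in MC38-LM3b. MC38-LM3a replicate 3 held the highest value of any library, and the other MC38-LM3a libraries lay within the parental range. The log2 differences of 0.23 (95% interval -0.32 to 0.79, adjusted p = 0.5468) and 0.39 (-0.17 to 0.95, adjusted p = 0.2173) did not pass. The first changed sign to -0.10 without MC38-LM3a replicate 3, and the second then passed at an unchanged 0.39 (adjusted p = 0.03602).

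H2-M3 (NCBI Gene 14991), which presents formylated peptides, was at 16.76, 20.21 and 18.96 TPM in MC38-P, at 37.89, 34.71 and 33.47 TPM in MC38-LM3a, and at 42.10, 39.17 and 41.89 TPM in MC38-LM3b. It rose by 0.89 (95% interval 0.69 to 1.09, adjusted p = 6.643e-05) and by 1.10 (0.90 to 1.30, adjusted p = 1.168e-05) on the log2 scale. In amount and in the size of its rise H2-M3 lay beside H2-T23.

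B2m (NCBI Gene 12010), the light chain shared by the heavy chains, was the most abundant member in every library. It was at 900.22, 808.37 and 837.64 TPM in MC38-P, at 1460.86, 1396.15 and 1624.70 TPM in MC38-LM3a, and at 1650.51, 1604.63 and 1588.61 TPM in MC38-LM3b. All derivative libraries lay above all parental ones. B2m rose by 0.81 (standard error 0.0656, 95% interval 0.67 to 0.96, adjusted p = 1.22e-05) and by 0.93 (0.78 to 1.07, adjusted p = 3.631e-06) on the log2 scale, 1.76 and 1.90 times the parental mean. The size of its rise depended on the processing. With offsets for length and GC content the differences were 0.63 and 0.72, under these intervals, and median centring gave 0.71 for MC38-LM3b. Over 19 alternatives they ran from 0.63 to 0.86 and from 0.71 to 1.04, and all passed.

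With the further demand that the log2 difference exceed 1, the threshold used for differentially expressed genes (DEGs), 4 members were DEGs in MC38-LM3a, where 1.39% of all genes were DEGs of that direction. They were H2-D1, H2-K1, H2-Q4 and H2-T22, the last at the threshold: it was at 0.97 to 1.04 over 19 alternatives and was no DEG under 6 of them (quantile normalization, the offsets for length and GC content, and without replicate 2 or 3 of MC38-P or replicate 1 or 2 of MC38-LM3a). In MC38-LM3b 6 were DEGs, against 2.76% of all genes, with H2-T23, again at the threshold and no DEG under 5 alternatives, and H2-M3 added. With the libraries centred on their median, 3 members were DEGs in MC38-LM3b (H2-D1, H2-K1 and H2-Q4), against 1.53% of all genes, and H2-T22, H2-T23 and H2-M3 were at 0.85, 0.78 and 0.88. With quantile normalization there were 4 in MC38-LM3b (H2-D1, H2-K1, H2-Q4 and B2m, the last at 1.04), against 1.57% of all genes. The offsets also gave 4 there (H2-D1, H2-K1, H2-Q4 and H2-M3), against 1.64% of all genes. With a pseudocount of 0.1, H2-Q6 was at 1.26 and 1.42 and became a DEG in each derivative. The counts were then 5 in MC38-LM3a and 7 in MC38-LM3b, against 2.22% and 4.46% of all genes. H2-Q6 passed the filter on low values through the derivatives alone. Every MC38-LM3a library was above every MC38-P library for 8 of the 9 members and for 20.3% of all genes. The same held for 8 members in MC38-LM3b, where 51.3% of all genes did so.

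**Figure D2:**
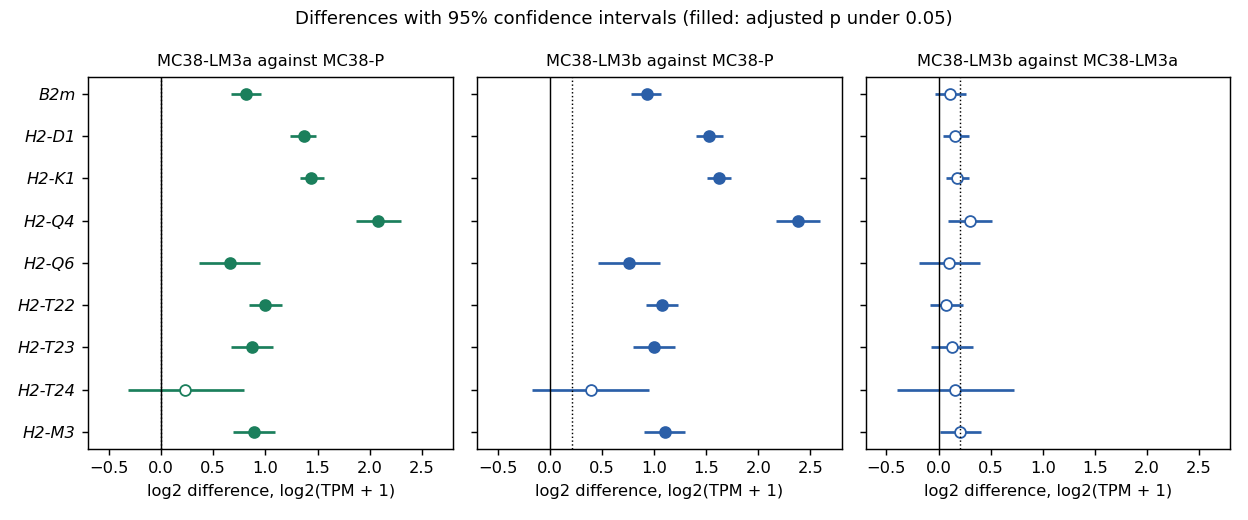
Log2 difference of log2(TPM + 1) with its 95% confidence interval for each member in the 3 comparisons, filled where the adjusted p was under 0.05. The solid line is 0 and the dotted line the median of all 11287 tested genes (0.00, 0.21 and 0.21). Intervals of 8 members lie above both lines in each comparison with MC38-P, and no point is filled between the derivatives. The 8 include H2-Q6, which passed the filter on low values through the derivatives alone.

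Reads can be shared between class I genes, which limits the split between them more than their sum. In GENCODE M21 transcripts, no 100-base stretch of H2-K1, H2-T24, H2-M3 or B2m was found in another gene, while 4.64% of the stretches of H2-D1, 7.28% of H2-T23, 13% of H2-Q6 (mostly shared with H2-Q7), 13.9% of H2-Q4 (mostly with Gm11131) and 14.2% of H2-T22 (mostly with H2-T10) were. With 150 bases the share of H2-Q4 was 8.39% and that of H2-T22 0.931%. The read length and how shared reads were assigned are not given in the sources used here.

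Summed over the 8 heavy chain genes, the transcripts amounted to 636, 604 and 604 TPM in MC38-P, 1620.4, 1566 and 1651 TPM in MC38-LM3a, and 1862, 1831 and 1772 TPM in MC38-LM3b. The sums did not overlap between any pair of lines. Of all single genes, 20.3% and 51.3% had every library of MC38-LM3a and MC38-LM3b above every MC38-P library. For MC38-LM3b above MC38-LM3a it was 38.4%, and there the log2 ratio of the mean sums, 0.18, was under the median difference of all genes, 0.21. The mean rose from 614 ± 18.4 TPM (SD, n = 3) to 1612 ± 43.2 and 1822 ± 45.6 TPM, ratios of 2.62 and 2.96. Heavy chains and B2m together made up 0.146 ± 0.00647% of all TPM of MC38-P, 0.311 ± 0.0158% of MC38-LM3a and 0.344 ± 0.00758% of MC38-LM3b. Since the members were chosen with results known, no p-value is given for a sum over them.

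Classical and non-classical genes were then compared. H2-D1 and H2-K1 together went from 515 ± 17.2 TPM to 1367 ± 38.9 for MC38-LM3a and 1541 ± 41.5 for MC38-LM3b, 2.65 and 2.99 times the parental mean. The 6 non-classical genes together went from 99.2 ± 3.2 TPM to 246 ± 4.27 and 281 ± 8.56, which is 2.48 and 2.83 times. The non-classical share of heavy chain TPM was thus nearly the same, at 16.1 ± 0.53% for MC38-P, 15.2 ± 0.145% for MC38-LM3a and 15.4 ± 0.41% for MC38-LM3b. Its groups did not overlap with MC38-P, although the difference was under 1 percentage point.

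Within the non-classical genes the make-up changed more. H2-Q4 held 3.78, 3.68 and 3.09% of heavy chain TPM in MC38-P, 5.63, 5.72 and 6.28% in MC38-LM3a, and 6.33, 6.39 and 6.46% in MC38-LM3b. H2-T22, H2-T23, H2-T24 and H2-M3 together went the other way, from 12, 13 and 12.6% to 9.51, 9.56 and 8.71% for MC38-LM3a and 9.15, 8.48 and 9.15% for MC38-LM3b. Neither share overlapped between MC38-P and a derivative.

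B2m had a smaller ratio to MC38-P than the heavy chain sum. In MC38-P there were 1.42, 1.34 and 1.39 B2m transcripts per heavy chain transcript by TPM, in MC38-LM3a 0.902, 0.892 and 0.984, and in MC38-LM3b 0.886, 0.876 and 0.896. The ratio was above 1 in every parental library and under 1 in every derivative library. It moved from 1.38 ± 0.0389 to 0.926 ± 0.0507 and 0.886 ± 0.0101, and the derivatives overlapped with each other.

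**Figure D3:**
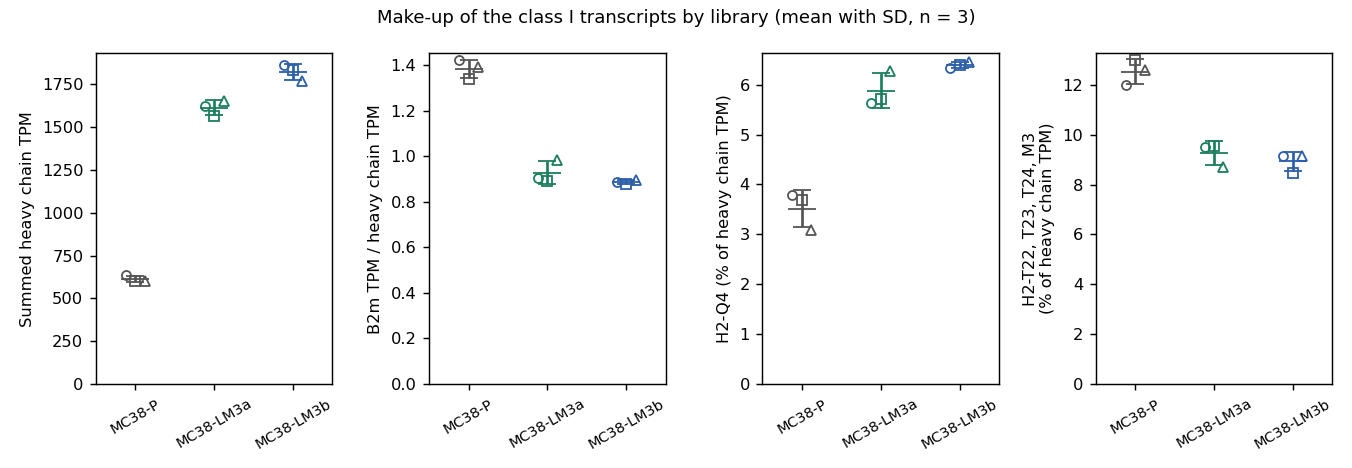
Summed heavy chain TPM, B2m TPM divided by heavy chain TPM, and the shares (percent of heavy chain TPM) of H2-Q4 and of the 4 T and M region genes, by library, with mean and SD (n = 3). All axes start at 0. MC38-P stands apart from both derivatives in each panel, while MC38-LM3a and MC38-LM3b overlap in the ratio and in the T and M region share.

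The order of the levels, which TPM allows to be compared between genes, also changed. In MC38-P it ran from B2m (849 TPM) through H2-D1 and H2-K1 (262 and 254 TPM, not apart beyond their spread) and H2-T22 (38.5 TPM) to H2-Q4, H2-M3 and H2-T23 (21.6, 18.6 and 17.4 TPM, ranges overlapping), H2-T24 (2.45 TPM) and H2-Q6 (0.55 TPM). In both derivatives H2-Q4 stood above H2-T22. The ratio of H2-Q4 to H2-T22 was 0.598, 0.591 and 0.495 in MC38-P, 1.16, 1.1 and 1.4 in MC38-LM3a, and 1.35, 1.48 and 1.41 in MC38-LM3b. H2-M3 and H2-T23 overlapped in MC38-LM3a and did not in MC38-LM3b.

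The values were also set beside the kappa-B like letters before the start. For H2-D1, H2-K1 and H2-Q4, whose windows hold them, the ratios of mean TPM to MC38-P ran from 2.58 to 4.38 in MC38-LM3a and from 2.89 to 5.38 in MC38-LM3b. For the members whose window lacks these letters (H2-T22, H2-T23, H2-M3 and B2m) they ran from 1.76 to 2.03 and from 1.9 to 2.2. Only exact matches were counted, so windows called lacking may hold near matches, which were not searched for. H2-Q6, which also holds the letters but was under 1 TPM in MC38-P, had ratios of 2.63 and 2.96, while its differences of 0.66 and 0.76 on the log2(TPM + 1) scale were smaller than those of all 4 members without the letters (0.81 to 1.00 and 0.93 to 1.10). This is a description of 8 promoters, several of them near copies of each other, and it was not tested.

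The derivatives were then compared with each other. No member passed between MC38-LM3b and MC38-LM3a, where 0.0532% of all genes (6 of 11287) passed in either direction in limma. At an unadjusted p under 0.05 there were 4 members, H2-K1, H2-Q4, H2-D1 and H2-M3, against 4296 of all genes. The same 4 had every MC38-LM3b library above every MC38-LM3a library, as did 38.4% of all genes. H2-Q4 differed by 0.30 (95% interval 0.09 to 0.51, adjusted p = 0.1187), H2-K1 by 0.18 (0.07 to 0.29, adjusted p = 0.1187) and B2m by 0.11 (-0.03 to 0.26, adjusted p = 0.194). The difference of H2-Q4 was above the median of all genes of 0.21, and those of H2-K1 and B2m were under it.

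This comparison depended on MC38-LM3a replicate 3, one of the libraries that stood apart along transcript length. Without it, or without it and MC38-P replicate 3, 5 members passed as higher in MC38-LM3b (H2-D1, H2-K1, H2-Q4, H2-T24 and B2m), and 52.2% of all genes passed as higher without it alone and 65% (8025 of 11187 in either direction) without both. With the libraries centred on their median, which takes the shift of about 0.21 from every gene alike, the difference was 0.07 for H2-Q4, -0.06 for H2-D1, -0.04 for H2-K1 and -0.11 for B2m.

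Genes that serve class I molecules were examined next, in lists that hold no member. Peptide loading genes move peptides into the endoplasmic reticulum and onto the heavy chain. Of 8, 4 rose and none fell in MC38-LM3a (median log2 difference 0.35, against 0.00 over all genes), and 7 rose and none fell in MC38-LM3b (0.54, against 0.21), where 14.1% and 35.6% of all genes passed as higher. Tap2, a subunit of the peptide transporter TAP, had the largest rise, from a parental 18.4 ± 1.45 TPM (SD, n = 3) to 51.8 ± 2.98 TPM for MC38-LM3a (log2 difference 1.44, adjusted p = 1.22e-06) and 63.7 ± 2.62 TPM for MC38-LM3b (1.74, adjusted p = 2.333e-07). Its partner Tap1 rose from 7.85 to 21.1 and 24.6 TPM. Tapbp, the tapasin that bridges TAP and the heavy chain, was at 93.0 TPM in the parental line, at 108 TPM for MC38-LM3a (adjusted p = 0.09143) and at 133 TPM for MC38-LM3b (adjusted p = 0.0009324). The chaperone Calr rose from 1148 TPM to 1489 and 1644.

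The immunoproteasome subunits and the PA28 activator, which shape the peptides made from cellular proteins, all rose: 5 of 5 in each derivative, against 14.1% and 35.6% of all genes, with medians of 0.70 and 0.53, against 0.00 and 0.21 over all genes. Psmb9 went from 7.21 ± 2.43 TPM to 31.5 ± 1.61 and 40.9 ± 4.56 (log2 differences 2.03 and 2.40, adjusted p = 4.144e-05 and 1.089e-05). Psmb8 went from 41.4 ± 3.94 TPM to 149 ± 11.2 and 149 ± 5.77. The others, Psmb10, Psme1 and Psme2, had log2 differences of 0.44 to 0.70. The count of 5 was the same without both replicate 3 libraries and with offsets for length and GC content.

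Genes for transcription of class I loci were less uniform. Of 14, 2 rose and 1 fell in MC38-LM3a (median 0.10, against 0.00 over all genes), a share of rises near the 14.1% of all genes, and 8 rose and 1 fell in MC38-LM3b (median 0.36, against 0.21), where 35.6% of all genes passed as higher. Nlrc5, the class I transactivator, rose from 3.40 ± 0.765 TPM to 11.7 ± 3.62 TPM for MC38-LM3a (log2 difference 1.51, adjusted p = 0.000224) and 17.8 ± 0.307 TPM for MC38-LM3b (2.11, adjusted p = 1.874e-05). Irf1, an interferon-induced activator, was at 54.9, 62.4 and 66.0 TPM with adjusted p = 0.1445 and 0.02811, and the derivatives did not differ from each other by the test (adjusted p = 0.4576). Atf1, a factor of the CREB family that can bind the X2 box, fell from 98.3 to 65.4 and 75.8 TPM (log2 differences -0.58 and -0.36).

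These counts moved with the libraries that stood apart, as did those of all genes. Without both replicate 3 libraries 18.4% of all genes passed as higher and 45.2% as lower in MC38-LM3a, and 46.3% and 19% in MC38-LM3b. The transcription list then held 2 higher and 5 lower in MC38-LM3a and 11 higher and 1 lower in MC38-LM3b, and with the offsets it held 8 higher and 2 lower in each, where 26.4% and 29.1% of all genes passed as higher and 24.4% and 28.2% as lower. The peptide loading list held 4 higher and 1 lower, and 8 higher, without both libraries, and 6 and 7 higher with the offsets. Between MC38-LM3b and MC38-LM3a, 0 genes of these lists passed in limma, whereas without both libraries 8 peptide loading and 13 transcription genes were higher in MC38-LM3b and 3 immunoproteasome genes were lower, against 65% and 6.78% of all genes.

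**Figure D4:**
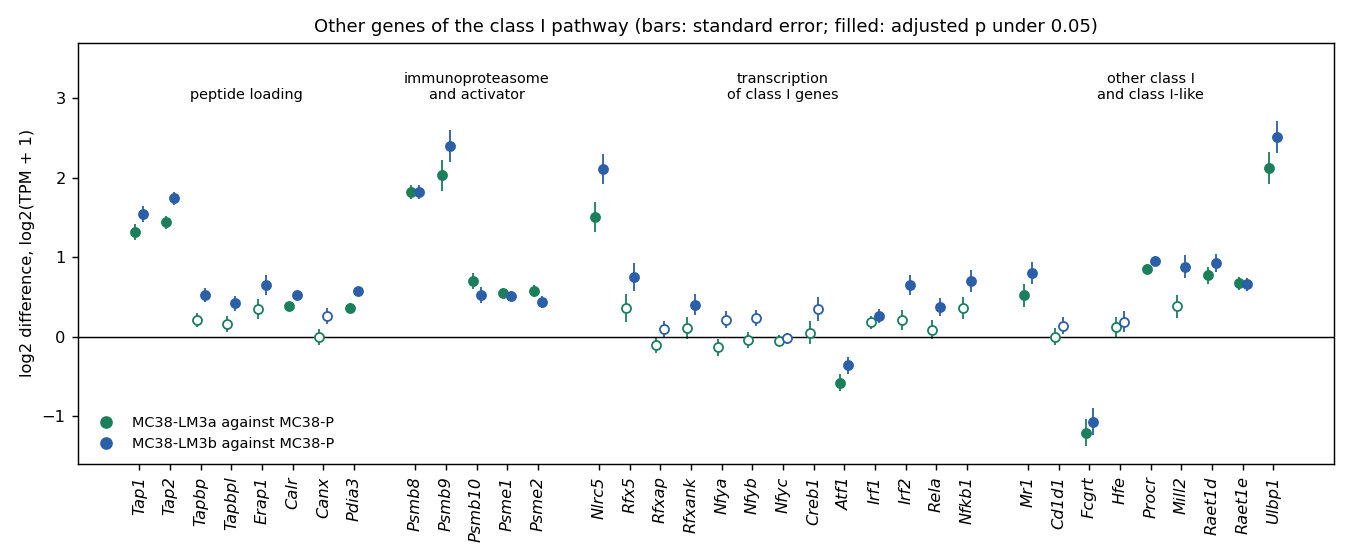
Log2 difference of log2(TPM + 1) from MC38-P with its standard error for the tested genes of 4 class I pathway lists but for 1 transcription gene that is not shown, filled where the adjusted p was under 0.05. Tap1, Tap2, Psmb8, Psmb9, Nlrc5 and Ulbp1 stand above 1 in both derivatives, and Fcgrt is below -1.

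Other class I and class I-like genes numbered 27 on the list, of which 17 were listed in the files and 9 tested. In MC38-LM3a 5 passed as higher and 1 as lower (median 0.52, against 0.00 over all genes), and in MC38-LM3b 6 and 1 (median 0.80, against 0.21), where 14.1% and 35.6% of all genes passed as higher and 13.8% and 11.2% as lower. These counts hold 2 genes that passed the filter only through the group where they are high. They are the lower gene, Fcgrt, through MC38-P, and among the 6, Mill2, which was at 0.5 to 0.8 TPM for MC38-P and 2.01 to 2.14 TPM for MC38-LM3b. Ulbp1, which encodes the NKG2D ligand MULT1, rose from 15.8 ± 4.61 TPM to 71.0 ± 16.8 and 91.9 ± 5.13 (log2 differences 2.12 and 2.51, adjusted p = 4.081e-05 and 1.036e-05). Raet1d and Raet1e, NKG2D ligands of the Rae-1 family whose near-identical copies can share reads, rose from 23.8 and 38.6 TPM to 41.0 and 61.8 in MC38-LM3a. Mr1, which presents vitamin B metabolites to MAIT cells, rose from 2.74 to 4.39 and 5.50 TPM. Procr, the endothelial protein C receptor with a class I-like fold, rose from 68.8 to 125 and 134 TPM.

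Fcgrt, the neonatal Fc receptor, which also pairs with B2m, was the lower one. It was at 2.36 ± 0.606 TPM (SD, n = 3) for MC38-P, 0.447 ± 0.122 TPM for MC38-LM3a and 0.603 ± 0.293 TPM for MC38-LM3b (log2 differences -1.21 and -1.07). Only the MC38-P libraries reached 1 TPM, so it entered the test through them and its p-value is not given. It was not tested once both replicate 3 libraries were left out, since fewer than 3 libraries then reached 1 TPM. Cd1d1, which presents lipids to NKT cells, was at 7.66, 7.67 and 8.55 TPM, and Hfe, a regulator of iron uptake, at 3.80, 4.21 and 4.47 TPM, and neither passed.

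Of 10 genes for class II molecules, which present peptides to CD4+ T cells, 4 were listed, and the alpha and beta chains of the class II molecules themselves were not analysed here. H2-DMa, which helps to load class II peptides, was the 1 tested, at 1.18, 0.97 and 1.34 TPM without passing in either comparison. Ciita, the class II transactivator, was at most at 0.08 TPM in any library, and Cd74, the invariant chain, at most at 0.33 TPM.

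The members on chromosome 17 were also set beside their neighbours, as the RefSeq gene table of GRCm38.p6 orders them. Between the outermost of the 8 members there were 103 other genes listed that are on none of the lists above, and 68 were tested. Of these, 10 rose and 5 fell in MC38-LM3a (median -0.03, against 0.00 over all genes), and 22 rose and 6 fell in MC38-LM3b (median 0.16, against 0.21), where 14.1% and 35.6% of all genes passed as higher and 13.8% and 11.2% as lower. The 22 hold Gm8909, which was under 1 TPM in every MC38-P library and passed the filter only through the derivatives, and Gm11127, which shares stretches of sequence with H2-T22 and H2-T23. Without both replicate 3 libraries the counts were 12 and 30 in MC38-LM3a and 29 and 10 in MC38-LM3b, against 18.4% and 45.2%, and 46.3% and 19%, of all genes. Of the genes that passed in both comparisons, Znrd1as had the largest rise by the mean of its log2 differences of 0.86 and 1.03 (6.80 to 12.8 and 14.6 TPM), with Gpsm3 beside it at 0.87 and 1.00. Znrd1as is an antisense gene whose reads cannot be told from those of Znrd1 if strand was not kept. The largest fall by the same measure was that of Hspa1b, an inducible heat shock protein (12.5 to 7.12 and 7.38 TPM), which has a near-identical copy in Hspa1a.

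Immune cells carry much class I RNA, so their markers were read in the same libraries. Macrophage and Kupffer cell markers (3 of 10 listed) reached at most 0.42 TPM, and their sum was 0.28 to 0.56 TPM for MC38-P, 0.04 to 0.12 TPM for MC38-LM3a and 0.05 to 0.13 TPM for MC38-LM3b. T and NK cell markers (1 of 6 listed) reached at most 0.18 TPM and hepatocyte markers (6 of 7 listed) at most 0.31 TPM, with a summed level of up to 0.4, 1.08 and 0.13 TPM in the 3 lines. Of the dendritic cell and B cell markers (4 of 5 listed) Flt3 reached 1.3 TPM, and their sum was 1.18 to 1.57 TPM for MC38-P, 0.26 to 0.48 TPM for MC38-LM3a and 0.59 to 0.89 TPM for MC38-LM3b. Of the 4 endothelial markers Cdh5 reached 1.39 TPM, and the sum of all 4 was at most 1.9 TPM in any library. Stellate cell and fibroblast markers (4 of 5 listed), carried by Col1a1 and Col3a1, were lower in the derivatives, at 52.3 to 70.1 and 61.5 to 68.7 TPM against 134 to 171 in MC38-P. The part of these levels in the class I values was not tested.

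Finally, the genes most like the members over the 9 libraries were listed by Pearson correlation of log2(TPM + 1), as a description without p-value. For the heavy chain sum they were Fcho1 (r = 0.999), Ralb (0.999), Scn8a (0.998), Procr (0.998) and Ptpn7 (0.998). For B2m they were Dbnl (0.998), Procr (0.997), Leprot (0.997), Qsox1 (0.997) and Lmbrd1 (0.996). Such values are common in these data: 509 of 11278 genes had r above 0.95 with the heavy chain sum and 547 with B2m, and the 9 points of each correlation share the step from MC38-P to the derivatives.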

How the data were processed

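The 9 files hold TPM values that the authors deposited for 16399 genes, to 2 decimals, each library summing to about 1000000. Poly(A) RNA was sequenced on the DNBSEQ platform. The submitters' processing notes name HISAT and GRCm39 without role or version, and the quantification tool is not given in the sources used here. The study's own test needs counts, so values were tested as log2(TPM + 1) with limma 3.58.1 in R 4.3.3: genes reaching 1 TPM in 3 or more libraries, 1 mean per group over all 9 libraries, a trended variance, and Benjamini-Hochberg adjustment over all tested genes. DEGs followed the study's thresholds, an adjusted p under 0.05 and an absolute log2 difference above 1. The procedure was checked on simulated data with independent noise for each gene and library. That check does not cover the differences between libraries along transcript length. 1 gene of the transcription list is counted but not reported here by name. The members and lists were chosen with earlier results of these data known. All members are named, as are, per list, the largest rise and fall among genes that passed in both comparisons with MC38-P and the 5 genes most like the heavy chain sum and B2m; other genes were named after their values were seen. Transcripts came from GENCODE M21 (length and GC for 99% of tested genes), promoters from RefSeq, and 99.3% of gene numbers matched the RefSeq gene table. Alternatives changed the pseudocount (0.1), the filter (none, or 5 TPM), the scaling, the variance prior, the libraries in the fit and the replicate block. Offsets came from a loess fit on length and GC content (span 0.3). Counts for the lists without both replicate 3 libraries and with offsets were added after seeing the data.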

Additional observations from a re-analysis of the deposited data

How the results depend on the processing

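The count of members higher than in MC38-P was 8 in each derivative under most alternatives, with H2-Q6 among them. Over the alternatives, 9.24% to 26.4% of all genes passed as higher in MC38-LM3a and 22.9% to 46.3% in MC38-LM3b. The count was 7 of 7 tested with the filter of 5 TPM (14.6% and 36.5% of all genes), which H2-Q6 and H2-T24 did not pass. Without MC38-LM3a replicate 3 it was 9 for MC38-LM3b, where 45.1% of all genes passed as higher, against 35.6% with all libraries. With a replicate block the counts were 8, 8 and 0 between the derivatives, as without it. With the block, 9.75% and 26% of all genes passed as higher than in MC38-P. The numbers do not pair the samples (same-numbered libraries correlated with r between -0.662 and 0.075 in their deviations). Between the derivatives, leaving out 1 library at a time gave 0 to 5 members, and 5 was also the count without both replicate 3 libraries (adjusted p 5.176e-05 for H2-Q4 to 0.006907 for B2m). Where the count was 5, 52.2% of all genes passed as higher without MC38-LM3a replicate 3 and 65% without both. The log2 ratio of the heavy chain sum in MC38-LM3b to MC38-P was 1.57, and 1.33 with TPM divided by the library median, which removes the shift of all genes.

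Values that changed sign were all of MC38-LM3b against MC38-LM3a or of H2-T24. With quantile normalization they were -0.12 for H2-Q6, -0.07 for H2-T22, -0.09 for H2-T23, -0.06 for H2-T24 and -0.00 for H2-M3. With median centring, which takes about 0.21 from every gene alike, they were -0.06 for H2-D1, -0.04 for H2-K1, -0.12 for H2-Q6, -0.15 for H2-T22, -0.09 for H2-T23, -0.06 for H2-T24, -0.01 for H2-M3 and -0.11 for B2m. With the offsets they were -0.09 for H2-T22 and -0.02 for H2-T23. H2-T24 was at -0.02 in this comparison without MC38-LM3a replicate 2, and ranged up to 0.49 as single libraries were left out. Against MC38-P, H2-T24 in MC38-LM3a was at -0.10 without MC38-LM3a replicate 3, up to 0.42 without another library, and -0.23 without both replicate 3 libraries. The cause was not tested. Over all genes, those that passed between MC38-LM3a and MC38-P numbered 3160, and 2083 to 7111 under the alternatives. Between the derivatives they numbered 6, and 6351 without MC38-LM3a replicate 3 and 8025 without both. Depth is unknown, and TPM gives shares of a library, not amounts per cell.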

Other observations

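Some class I-like genes outside the chosen members were looked at after the values had been seen. H2-Q9, another gene for Qa-2, was at 0.25, 0.39 and 0.2 TPM in MC38-P, at 0.62, 0.54 and 0.92 TPM in MC38-LM3a, and at 0.51, 1.03 and 0.6 TPM in MC38-LM3b, so it stayed near or under 1 TPM in all 9 libraries. Gm11127, which shares stretches with H2-T22 and H2-T23, was at 1.07, 0.74 and 0.71 TPM, then 1.15, 0.87 and 1.58 TPM, and 2.23, 1.74 and 1.49 TPM. Gm8909 was at 0.82, 0.81 and 0.83 TPM, then 1.08, 1.48 and 1.28 TPM, and 1.81, 1.64 and 2.39 TPM. With every listed H2-D, K, Q, T and M gene added to the sum, the log2 ratios of the heavy chain sum to MC38-P were 1.39 for MC38-LM3a and 1.57 for MC38-LM3b, as without them.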
